A study of Homo sapiens with 8 samples.

Results

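CXCR4, CCR4, CCR7, CCR9, S1PR1, SELPLG and KLF2, 7 of the 63677 genes in the count table, were chosen by symbol for their roles in lymphocyte homing and egress. Their transcripts were followed in Jurkat, an established human line of T-ALL (T-cell acute lymphoblastic leukaemia). In all groups, controls included, the cells were TAL1-FKBP12 Jurkat cells, in which the leukaemia transcription factor TAL1 is joined to a tag that dTAG-13 links to a ubiquitin ligase, so that the protein is degraded. The 4 groups were harvested after 24 h in DMSO (the solvent), in dTAG-13, in GSI, or in both drugs (the combination). GSI usually stands for an inhibitor of gamma-secretase, the protease that activates NOTCH receptors. There were 2 libraries of total RNA a group. Doses are not in the labels, nor is it said whether the 2 libraries are separate cultures or whether the tagged line is 1 clone. The p-values thus cover the spread between libraries, and that spread may be technical.

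Chemokine receptors are G-protein-coupled receptors that steer cells along gradients of small secreted proteins. CXCR4 answers CXCL12 and holds T-ALL cells in the bone marrow niche, CCR7 answers CCL19 and CCL21 and guides T cells to lymph nodes, CCR9 answers CCL25 in thymus and gut, and CCR4 answers CCL17 and CCL22 in skin and inflamed tissue. S1PR1 senses sphingosine 1-phosphate and lets T cells leave lymphoid organs, and the zinc finger factor KLF2 is known to activate its gene. SELPLG encodes PSGL-1, the selectin ligand on which leukocytes roll before they stop on the vessel wall.

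All 7 genes passed the filter on low counts and were among the 15646 genes tested. Levels are given as CPM, reads scaled to the library's total after TMM normalization, and a gene is called when its adjusted p in edgeR's quasi-likelihood test is below 0.05. Total counts per library ran from 17544319 to 22180009, and mitochondrial genes held 7.8% to 8.81% of them. The libraries of a group differed beyond counting noise (chi-square 4.42 to 13.4 per degree of freedom) and were not copies. The NOTCH target DTX1 fell with GSI (log2 fold change -2.97, adjusted p = 2.06e-08 by edgeR). The TAL1 transcript does not check the dTAG-13 libraries, because dTAG-13 acts on the protein, which was not measured. All 10 T-lineage markers were above 1 CPM in the mean of the libraries, and their summed level ran from 2740 to 3330 CPM. Markers of myeloid cells summed to 0.288 to 0.704 CPM and those of the erythroid and megakaryocytic lineages to 0.386 to 1.16 CPM, with FCGR3A, MPO, S100A8, FCN1, HBB, HBA2, PF4, PPBP and GP9 among those at 0 in every library.

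The windows upstream of CXCR4 and CCR4 are shown because CXCR4 was the member called in a pairwise comparison and CCR4 the member called for dTAG-13 averaged over GSI status. They come from RefSeq on GRCh38.p14, a later build than the hg19 on which the reads were counted. CXCR4 lies on the minus strand and its window is chr2:136118166-136118399. CCR4 lies on the plus strand and its window is chr3:32951394-32951573. Both are written 5′ to 3′ in the direction of the gene and stop before the earliest annotated start. Capitals mark matches, on either strand, to CANNTG (the E-box letters bound by factors of the class of TAL1), GATAA (GATA factors) or TGGGAA (RBPJ, the DNA-binding partner of NOTCH).
CXCR4: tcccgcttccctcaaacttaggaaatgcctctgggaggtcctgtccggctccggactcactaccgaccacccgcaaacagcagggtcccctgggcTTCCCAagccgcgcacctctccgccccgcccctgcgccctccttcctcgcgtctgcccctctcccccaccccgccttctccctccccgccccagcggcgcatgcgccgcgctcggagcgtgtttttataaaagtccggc
CCR4: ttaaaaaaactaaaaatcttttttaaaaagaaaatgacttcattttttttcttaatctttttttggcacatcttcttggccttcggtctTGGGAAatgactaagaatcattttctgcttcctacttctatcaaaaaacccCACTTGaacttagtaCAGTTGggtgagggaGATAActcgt

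Within the full 250 bases before each start, the CCR4 window held 2 matches to CANNTG, 1 to GATAA and 1 to TGGGAA. The CXCR4 window shown held 1 match to TGGGAA, on the reverse strand, and none to the other letters. Of the other 2 windows listed for CXCR4, one held 1 match to CANNTG and the other 1 to TGGGAA. Such matches are common: of 35116 RefSeq windows of this length, 61.8% held CANNTG, 20.4% held GATAA and 20.8% held TGGGAA. In CCR4 the second CANNTG is followed after 9 bases by GATAA, a spacing found in 42 windows (0.12%). That spacing was looked for after the CCR4 letters had been read. Windows were listed for 5 of the 7 genes, 8 in all. S1PR1 had 1 match to CANNTG, the first CCR9 window had 4 to CANNTG and 2 to GATAA, and KLF2 had none to any of the 3. These are matches of letters, and no binding was measured.

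The 7 transcripts differed widely in abundance. Per kilobase of exon in DMSO, CXCR4 had 164 CPM per kb and SELPLG 92.2, followed by KLF2 at 9.05, S1PR1 at 3.33, CCR7 at 2.01, CCR4 at 0.907 and CCR9 at 0.417. The largest library of a gene exceeded its smallest by 3.56-fold for CCR4, the widest span of the 7, and by 1.23-fold for SELPLG, the narrowest. CCR9, with only 14 to 35 reads per library, came next to CCR4 at 2.25-fold. In RNA from a whole culture, fewer cells with a transcript and less transcript per cell cannot be told apart.

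**Figure D1:**
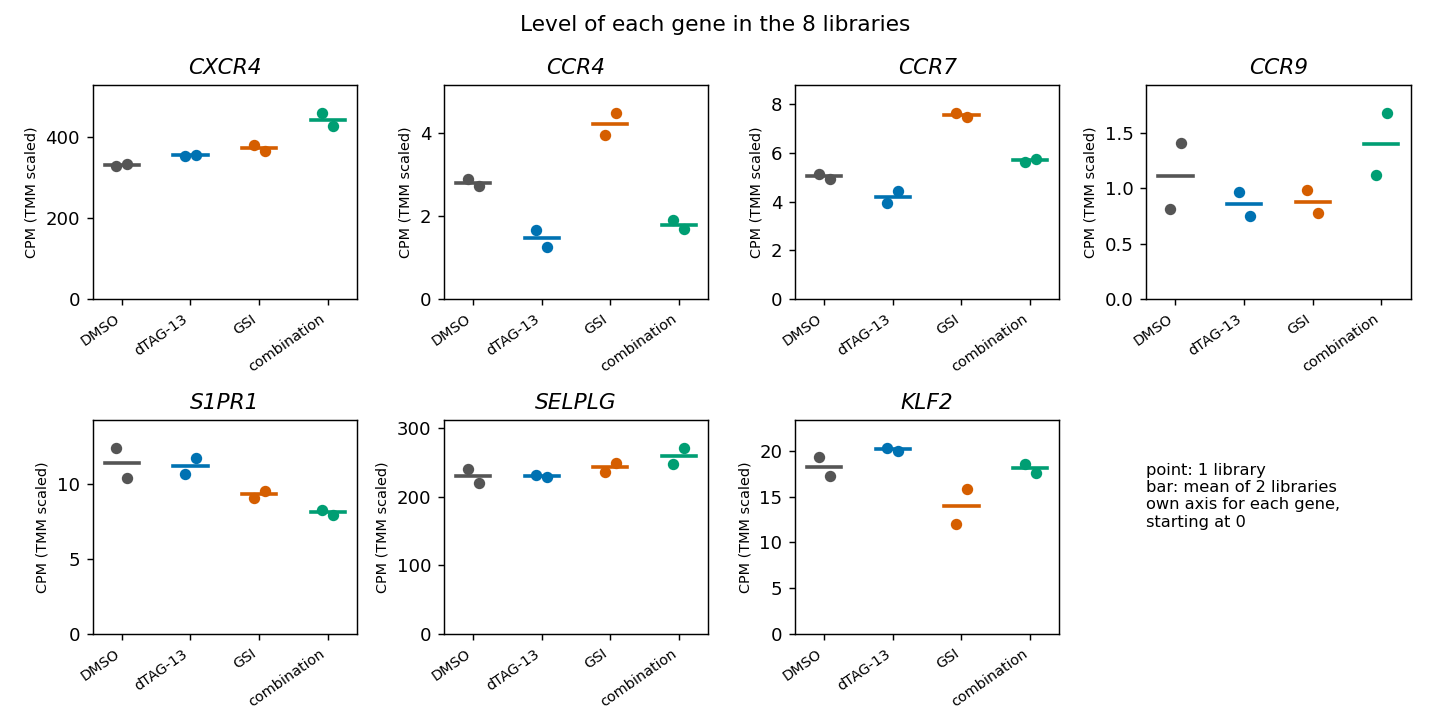
Each panel shows 1 gene in CPM on a linear axis from 0, with 1 point per library and a bar at the mean of the 2 libraries of each treatment. CXCR4 is lowest at 327 CPM in a DMSO library and highest at 459 CPM in a combination library, and CCR4 is low in both groups that received dTAG-13.

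CXCR4 was highest in the combination. Its level was 327 and 334 CPM in the DMSO libraries, 352 and 356 with dTAG-13, 380.2 and 365.5 with GSI, and 459 and 425 with the combination. The 4 groups stood in the order combination, GSI, dTAG-13, DMSO, and no 2 neighbouring groups overlapped. In the pairwise comparisons, 25.8% to 43.5% of all genes did not overlap between the 2 groups. The share of all genes with all 4 groups apart, as here and for CCR4 and CCR7, was not counted. Against DMSO, CXCR4 rose 1.34-fold in the combination (log2 fold change 0.42, SE 0.081, 95% interval 0.24 to 0.60, adjusted p = 0.0252 by edgeR, n = 2 against 2). CXCR4 was the 1 member called in this comparison, in which 1.31% of all genes were called, 0.543% higher and 0.767% lower. In the authors' deposited table the same difference is 0.41 (SE 0.096) with an adjusted p of 0.00222. The call was lost without DMSO replicate 1 (adjusted p = 0.315), DMSO replicate 2 (0.327) or combination replicate 1 (0.131), and narrowly when the 4 DMSO and combination libraries were fitted by themselves (0.0525). Its log2 fold change stayed between 0.37 and 0.47 over all 9 alternatives, whose adjusted p ran from 0.000448 to 0.327.

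The single drugs gave smaller differences in CXCR4 that were not called. GSI against DMSO gave 0.17 on the log2 scale (SE 0.081, adjusted p = 0.358 by edgeR) and dTAG-13 gave 0.10 (SE 0.081, adjusted p = 1). Adding GSI to dTAG-13 gave 0.32 (SE 0.081, adjusted p = 0.0868 by edgeR), a difference that DESeq2 called (adjusted p = 0.0275). On the log2 scale the combination lay 0.15 above the single effects added together (SE 0.114, 95% interval -0.10 to 0.40), which was not called.

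CCR4 was scarce and was low wherever dTAG-13 was given. DMSO libraries had 2.89 and 2.72 CPM, dTAG-13 libraries 1.66 and 1.26, GSI libraries 3.94 and 4.49, and combination libraries 1.91 and 1.68. These levels rest on 27 to 93 reads per library. The groups did not overlap, in the order GSI, DMSO, combination, dTAG-13. Both differences made by dTAG-13 were negative. The log2 fold change was -0.94 against DMSO (SE 0.236, 95% interval -1.45 to -0.42, adjusted p = 0.456 by edgeR) and -1.23 on top of GSI (SE 0.215, 95% interval -1.70 to -0.76, adjusted p = 0.092). Neither was called by edgeR at the 0.05 threshold. In the authors' deposited table the first is -0.94 with a larger error (SE 0.44) and no adjusted p. The second was called when no filter on low counts was applied (adjusted p = 0.00145) and was not called by DESeq2 (adjusted p = 0.255).

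Averaging the dTAG-13 effect over cells with and without GSI uses all 8 libraries. This contrast was added with the values above already known, so it does not support them independently. In it CCR4 fell to 0.472 of its level (log2 fold change -1.08, SE 0.16, 95% interval -1.43 to -0.73, adjusted p = 0.0107 by edgeR). It was the 1 member called, where 0.499% of all genes were called and 0.422% were called lower. The 4 libraries with dTAG-13 all lay below the 4 without it, which held for no other member and, in either direction, for 2.63% of all genes. The call held in 9 of 12 alternatives and was lost without DMSO replicate 1 (adjusted p = 0.0855), DMSO replicate 2 (0.0714) or dTAG-13 replicate 2 (0.0649). Over the 12 alternatives the log2 fold change ran from -1.19 to -0.99.

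CCR4 levels were higher with GSI alone. The difference from DMSO was 0.59 on the log2 scale (SE 0.204, 95% interval 0.14 to 1.03, adjusted p = 0.201 by edgeR), and from dTAG-13 to the combination it was 0.30 (SE 0.25). The combination against DMSO gave -0.64 (SE 0.229, adjusted p = 0.254). None of the 3 was called.

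CCR7 was highest with GSI alone and lowest with dTAG-13 alone. DMSO libraries had 5.14 and 4.95 CPM, dTAG-13 libraries 3.96 and 4.43, GSI libraries 7.65 and 7.48, and combination libraries 5.63 and 5.75, from 86 to 163 reads each. All 4 groups stood apart, in the order GSI, combination, DMSO, dTAG-13. GSI against DMSO gave a log2 fold change of 0.59 (SE 0.147, 95% interval 0.27 to 0.91), with an adjusted p of 0.0769 by edgeR that missed the threshold. In the authors' deposited table this difference is 0.57 (SE 0.275), with an adjusted p of 0.492 by DESeq2. The combination against dTAG-13 gave 0.44 (SE 0.154, adjusted p = 0.246). Averaged over both backgrounds, a contrast also added with the values known, CCR7 rose 1.43-fold with GSI (0.51 on the log2 scale, SE 0.106, adjusted p = 0.0138 by edgeR). That call was lost without DMSO replicate 1 (adjusted p = 0.0588), DMSO replicate 2 (0.082) or dTAG-13 replicate 1 (0.0647). The difference of dTAG-13 from DMSO in CCR7 was -0.26 on the log2 scale (SE 0.158, 95% interval -0.61 to 0.08) and was not called. With dTAG-13 the averaged log2 fold change of CCR7 was -0.34 (SE 0.107) and was not called by edgeR (adjusted p = 0.465).

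CCR9 could not be resolved at this depth. Its libraries had 0.808 and 1.41 CPM in DMSO, 0.967 and 0.746 with dTAG-13, 0.985 and 0.772 with GSI, and 1.117 and 1.68 with the combination. Every group overlapped its neighbour in order of mean. CCR9 also lies opposite LZTFL1 in the annotation, and the sources used here do not give the strand setting of the counting, so its reads cannot be assigned with certainty. The departure of the combination from additivity was 1.06 on the log2 scale, with a 95% interval of -0.11 to 2.23.

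S1PR1 was lower in the libraries with GSI. It had 12.4 and 10.4 CPM in DMSO, 10.7 and 11.7 with dTAG-13, 9.06 and 9.55 with GSI, and 8.29 and 7.91 with the combination. All 4 libraries with GSI lay below all 4 without it, while DMSO and dTAG-13 overlapped. Neither the difference of GSI from DMSO (log2 fold change -0.29, SE 0.135, adjusted p = 0.364) nor that of the combination from DMSO (-0.49, SE 0.136, adjusted p = 0.129) was called. In the averaged contrast S1PR1 fell to 0.77 of its level with GSI (-0.38 on the log2 scale, SE 0.095, 95% interval -0.58 to -0.17, adjusted p = 0.0341 by edgeR). It held in 4 of 12 alternatives, with adjusted p from 0.0113 to 0.157, and DESeq2 did not make it. It was lost without either DMSO library, either dTAG-13 library, GSI replicate 1 or either combination library, and the log2 fold change stayed between -0.44 and -0.31. dTAG-13 alone gave -0.02 (SE 0.132, 95% interval -0.31 to 0.27).

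KLF2, the activator of the S1PR1 gene, had its lowest mean with GSI alone. Its level was 19.3 and 17.3 CPM in DMSO, 20.4 and 19.9 with dTAG-13, 11.97 and 15.9 with GSI, and 18.6 and 17.6 with the combination. Both KLF2 and S1PR1 lay below DMSO with GSI alone. In the combination, where S1PR1 was lowest, KLF2 overlapped DMSO. The log2 fold change was -0.39 with GSI (SE 0.137, 95% interval -0.69 to -0.09, adjusted p = 0.206 by edgeR) and -0.01 with the combination (SE 0.134, 95% interval -0.30 to 0.28). Neither was called. The GSI libraries differed by more than those of any other group in this gene (SD 2.76 CPM, against 0.291 to 1.44). No test of the difference between the KLF2 and S1PR1 patterns was made.

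SELPLG was abundant and the most even of the 7. It had 239.7 and 220.3 CPM in DMSO, 231 and 229 with dTAG-13, 236 and 249.7 with GSI, and 248 and 272 with the combination. dTAG-13 against DMSO gave a log2 fold change of 0.00 with a 95% interval of -0.18 to 0.18, and the combination gave 0.17 (SE 0.084, adjusted p = 0.43 by edgeR). SELPLG overlaps the antisense gene AC007569.1, so its reads carry the same doubt about strand as those of CCR9.

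**Figure D2:**
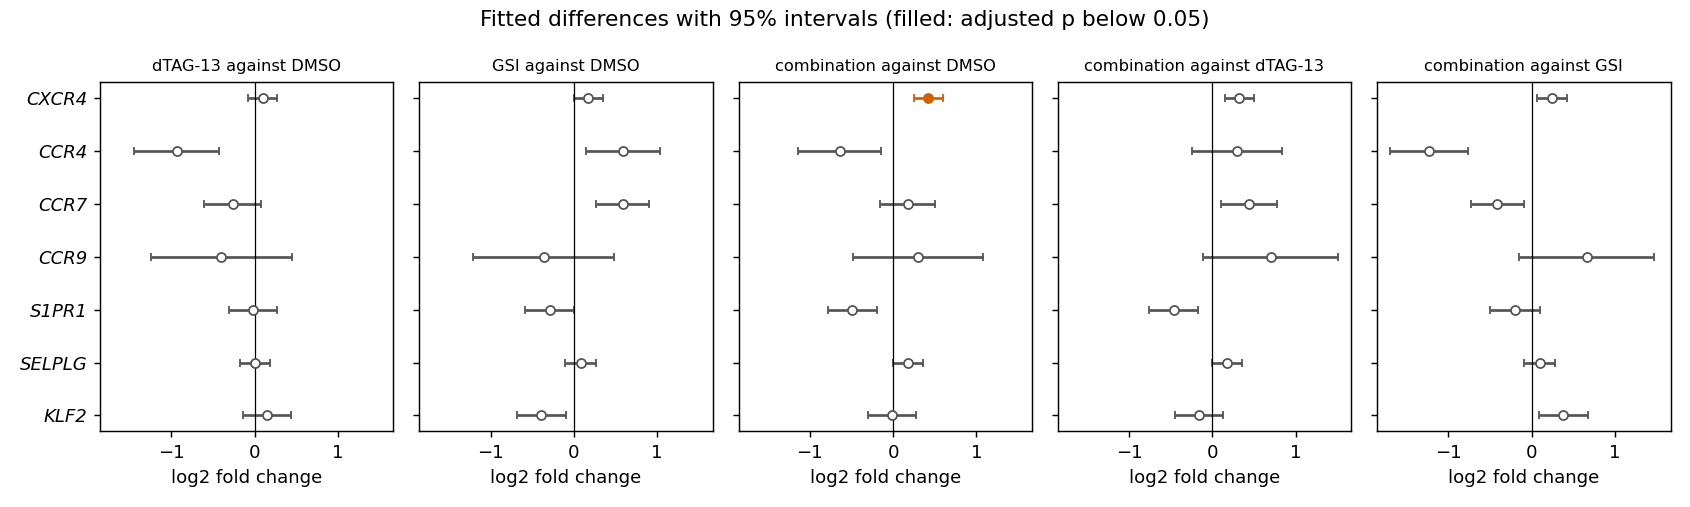
Log2 fold changes of the 7 genes in each comparison, with 95% intervals from edgeR and a line at 0; filled points have an adjusted p below 0.05. Among the pairwise comparisons only CXCR4 in the combination against DMSO is filled.

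Across the 7 genes, few differences passed the test, and the counts of members should be read beside those of all genes. With dTAG-13 against DMSO, edgeR and DESeq2 each called 0 members, and 1 member (CCR4) had an unadjusted p below 0.05. Over all genes edgeR called 0.0192%, and 3.84% had such a p. With GSI, both tools again called 0 members, and 3 (CCR4, CCR7 and KLF2) had an unadjusted p below 0.05, against 1.74% of all genes called and 14% with such a p. With the combination, 3 members (CXCR4, CCR4 and S1PR1) had an unadjusted p below 0.05, against 12.4% of all genes. The 3 comparisons share the DMSO libraries and are not independent of each other.

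Each drug was also compared in the presence of the other. For the combination against dTAG-13, edgeR called 0 members and DESeq2 1 (CXCR4). CXCR4, CCR7 and S1PR1, 3 of 7, had an unadjusted p below 0.05. Of all genes 1.21% were called and 13% had such a p. For the combination against GSI, both tools called 0 members, and 4 (CXCR4, CCR4, CCR7 and KLF2) had an unadjusted p below 0.05. Of all genes 0.0575% were called and 4.14% had such a p. For the departure from additivity, edgeR and DESeq2 called 0 members and 0% of all genes, with 0 members and 1.66% of all genes at an unadjusted p below 0.05.

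Libraries that do not overlap are common with 2 against 2. Against DMSO, 4 of 7 members did not overlap with dTAG-13 (35.3% of all genes), 5 with GSI (43.5%) and 5 with the combination (42.1%). Against dTAG-13 all 7 members stood apart in the combination (43.5% of all genes), and against GSI 6 did (25.8%). The median log2 fold change of the members was -0.02 with dTAG-13, 0.08 with GSI and 0.17 with the combination, beside 0.01, 0.01 and 0.00 over all genes tested. In the averaged GSI contrast, 3 members were called, CXCR4 (1.19-fold, adjusted p = 0.0224) and CCR7 higher and S1PR1 lower, where 6.94% of all genes were called, 3.38% higher and 3.56% lower. Those 3 genes were also the members whose 4 GSI libraries did not overlap the other 4, as in 15.2% of all genes. The CXCR4 call held in 6 of 12 alternatives, with adjusted p from 0.00377 to 0.126. It was lost without either DMSO library, either dTAG-13 library, GSI replicate 1 or combination replicate 1.

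**Figure D3:**
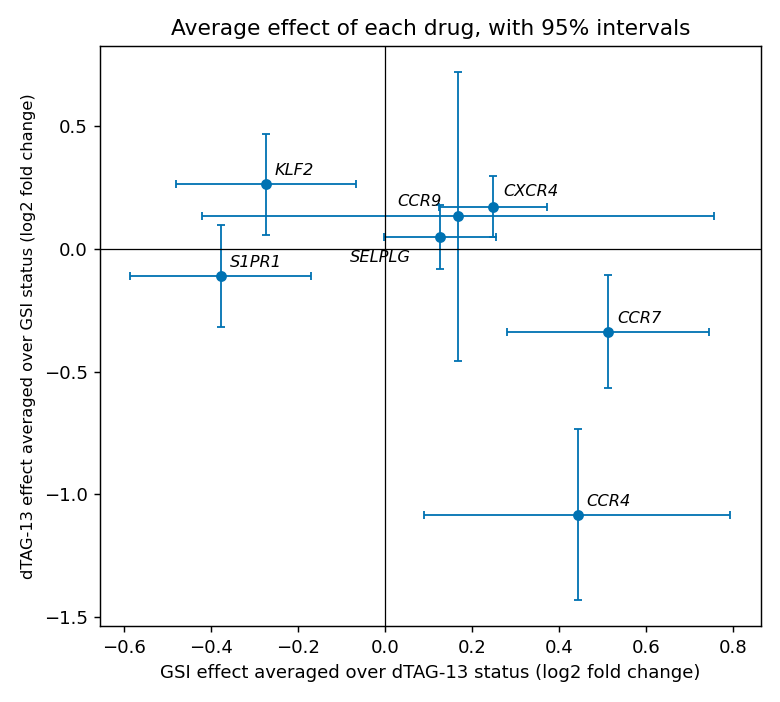
Log2 fold change with GSI averaged over dTAG-13 status (x axis) against that with dTAG-13 averaged over GSI status (y axis), 1 point per gene with 95% intervals as bars. CCR4 lies lowest, at -1.08 on the dTAG-13 axis, CCR7 farthest right at 0.51 and S1PR1 farthest left at -0.38 on the GSI axis.

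Markers of other cell types were set beside the GSI results. The summed B-cell markers, led by the precursor-B gene IGLL1, were 234 to 285 CPM in libraries without GSI and 333 to 489 CPM with it, and 4 of 10 were above 1 CPM. The T-lineage sum was 3100 to 3330 CPM without GSI and 2740 to 3150 CPM with it. Natural killer markers summed to 13 to 16.4 CPM over all libraries, with NCR1 at 0. Epithelial and stromal markers summed to 1.82 to 4.1 CPM. The part of these shifts in the levels of CXCR4, CCR7 and S1PR1 was not tested.

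Genes of the same pathways were taken from 7 lists of 160 genes, chosen with earlier results of these data known. In dTAG-13 against DMSO, the combination against GSI and the departure from additivity, 0 genes of any list were called by edgeR. The list of other chemokine receptors held 21 genes, of which 10 were tested and 12 were below 1 CPM in every library. It also held PTGDR2 and GPR183, which are not receptors for chemokines, and its counts include them. With GSI, 2 of the 10 rose (PTGDR2 and CCR2), where 0.876% of all genes did, and 0 fell, where 0.863% did. The median log2 fold change of these 10 was 0.31, against 0.01 over all genes.

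PTGDR2, the prostaglandin D2 receptor also called CRTH2, had a higher level in all libraries with GSI. It had 2.54 and 3.04 CPM in DMSO, 3.59 and 3.12 with dTAG-13, 7.79 and 8.83 with GSI, and 7.77 and 9.06 with the combination. The groups with GSI did not overlap those without it. PTGDR2 rose with GSI (1.56 on the log2 scale, SE 0.178, adjusted p = 0.00076), with the combination (1.58, adjusted p = 0.000611) and from dTAG-13 to the combination (1.32, adjusted p = 0.002). Each of these edgeR calls held in all 9 alternatives.

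CCR2, a receptor for CCL2, was called with GSI on very few reads. Its 2 GSI libraries held 33 reads and its 2 DMSO libraries 3, a ratio of 10.3 per scaled read with a counting interval of 3.23 to 52.5. The call was lost without any of the 4 libraries, and DESeq2 gave no adjusted p for CCR2 (log2 fold change 3.33, SE 1.173). Over the 9 alternatives the log2 fold change ran from 2.70 to 3.95. CXCR3, of the highest mean level in the list, had 13.4 CPM in DMSO, 9.87 with dTAG-13, 17.3 with GSI and 15.2 with the combination in the mean of 2 libraries, and was called in none of the pairwise comparisons. In the averaged GSI contrast 3 of the 10 were higher (PTGDR2, CCR2 and CXCR3) and 2 lower (CXCR6 and CX3CR1, named after their values were seen), where 3.38% of all genes were higher and 3.56% lower. The PTGDR2 call held there in all 12 alternatives. The CXCR3 and CCR2 calls each held in 6 of 12, and DESeq2 again gave no adjusted p for CCR2.

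Chemokines themselves were nearly silent. Of 21 listed, 19 were below 1 CPM in every library, 9 had no read at all, and the 2 tested, CCL1 and XCL2, were not called in any comparison. CCL1 averaged 0.966 CPM in DMSO and 1.65 CPM with dTAG-13.

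The sphingosine 1-phosphate list held 18 genes, of which 13 were tested. With GSI 2 of them rose and 0 fell, where 0.876% of all genes rose and 0.863% fell. The median log2 fold change was 0.06, against 0.01 over all genes. S1PR3, another receptor for the same lipid, had 32.6 and 31.8 CPM in DMSO, 36.7 and 36.1 with dTAG-13, 51.5 and 46.1 with GSI, and 44.3 and 53.5 with the combination. It rose with GSI (0.60 on the log2 scale, SE 0.107, adjusted p = 0.0138 by edgeR) and with the combination (0.60, adjusted p = 0.0155), the opposite direction to the S1PR1 difference. The GSI call was lost without either DMSO library or GSI replicate 1 (adjusted p up to 0.234), and the combination call without either DMSO library or combination replicate 2 (up to 0.28). In the averaged GSI contrast S1PR3 rose (0.51, adjusted p = 0.00157) in all 12 alternatives.

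CD69, the activation marker that takes S1PR1 off the cell surface in lymphocytes, was highest with GSI alone. It had 4.50 and 3.45 CPM in DMSO, 2.86 and 2.52 with dTAG-13, 7.51 and 7.48 with GSI, and 3.68 and 4.03 with the combination. Both groups with dTAG-13 lay below the matching group without it in the mean. CD69 rose with GSI (0.93 on the log2 scale, SE 0.175, adjusted p = 0.0181 by edgeR), a call lost without any of the 4 libraries (adjusted p up to 0.327), and from GSI to the combination the difference was -0.96 (adjusted p = 0.0999). In the averaged GSI contrast CD69 rose (0.72, adjusted p = 0.0065) in 11 of 12 alternatives, with an adjusted p of 0.05 without DMSO replicate 2. In the averaged dTAG-13 contrast CD69 fell (-0.76, SE 0.132, adjusted p = 0.029) and held in 5 of 12 alternatives. The only other list gene called there was the integrin subunit ITGA4 (-0.35, adjusted p = 0.0337), named after its value was seen.

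The list of selectins and genes that modify selectin ligands such as PSGL-1 held 26 genes, of which 21 were tested. It also held the surface proteins SPN, CD44 and C10orf54, which are neither. The 1 gene called in pairwise comparisons was CHST2, a sulfotransferase of selectin ligands, which fell from dTAG-13 to the combination (51.4 and 52.0 to 32.9 and 40.2 CPM, log2 fold change -0.50, adjusted p = 0.0365 by edgeR). It was lost when only the 4 compared libraries were fitted and without either dTAG-13 library or combination replicate 1 (adjusted p up to 0.319). In the averaged GSI contrast CHST2 fell (-0.41, adjusted p = 0.00551) in all 12 alternatives. Of the 21 genes 2 were called higher there and 2 lower, against 3.38% and 3.56% of all genes. From dTAG-13 to the combination 1.21% of all genes were called.

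Of 23 KLF, FOXO and related factors 18 were tested and 0 were called by edgeR in any pairwise comparison. With GSI averaged over dTAG-13 status, 2 of the 18 were called higher and 1 lower, against 3.38% and 3.56% of all genes. Of 36 genes for signalling and desensitisation below these receptors 33 were tested. RGS3, which speeds the shut-off of G proteins, was the 1 gene called in pairwise comparisons, at 8.84 and 10.1 CPM in DMSO, 8.71 and 8.39 with dTAG-13, 4.27 and 5.64 with GSI, and 5.03 and 4.75 with the combination. It fell with GSI (-0.94 on the log2 scale, SE 0.163, adjusted p = 0.0127 by edgeR), with the combination (-0.96, adjusted p = 0.0114) and from dTAG-13 to the combination (-0.81, adjusted p = 0.0339). Of all genes, 1.74%, 1.31% and 1.21% were called in these comparisons, in that order. The first was lost without either DMSO library or GSI replicate 1 (adjusted p up to 0.228), the second without either DMSO library or combination replicate 1 (up to 0.257). The third was lost without any of the 4 libraries and when these were fitted by themselves (up to 0.232). In the averaged GSI contrast 7 genes of the list were called higher and 2 lower, where 3.38% of all genes were higher and 3.56% lower. RGS3 fell there (-0.87, adjusted p = 0.000795) in all 12 alternatives, and CORO1A, an actin-binding protein, rose (0.42, adjusted p = 0.00809) in 11 of 12, lost without DMSO replicate 2 (0.0767). With dTAG-13, 26 of the 33 genes had a negative log2 fold change with a median of -0.04, and none was called. The median over all genes was 0.006, and the share of all genes with a negative value was not counted. Of 15 integrins and other homing receptors 14 were tested and 0 were called in a pairwise comparison. With GSI averaged over dTAG-13 status, 4 of the 14 were called higher and 2 lower, against 3.38% and 3.56% of all genes.

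**Figure D4:**
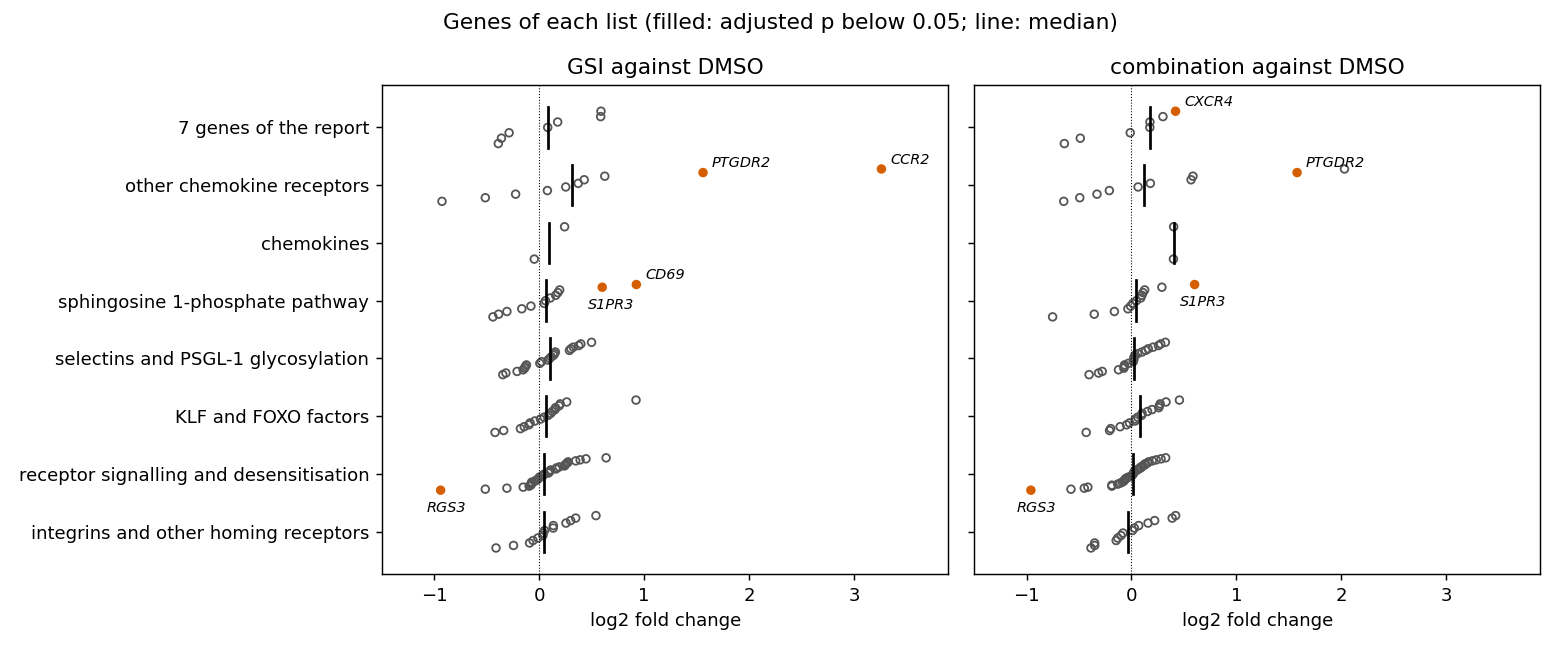
Log2 fold changes of the tested genes of each list with GSI (left) and with the combination (right) against DMSO; filled points have an adjusted p below 0.05 and bars mark medians. PTGDR2 at 1.56 and RGS3 at -0.94 are filled in the left panel, and both stay filled in the right.

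Genes whose pattern over the 8 libraries was most like that of each member were found by Pearson's r of log2 CPM among 10165 or 10166 genes of at least 5 CPM, as a description. GZMA, a granule protease of cytotoxic cells, came closest to CCR4 (r = 0.988). Its libraries had 8.20 and 6.58 CPM in DMSO, 4.15 and 3.73 with dTAG-13, 10.5 and 11.4 with GSI, and 5.45 and 4.70 with the combination, low wherever dTAG-13 was given. AXIN2 (0.983) and ALDH1A2 (0.96) followed. CXCR4 was most like ELOVL4 (0.96), RCAN1 (0.956) and DDR1 (0.955), and CCR7 most like PRKAB1 (0.993), HHIP (0.988) and MARK2 (0.982). S1PR1 was most like BCHE (0.975), SPSB1 (0.968) and HDAC3 (0.966). KLF2 was most like FBXL16 (0.974), CD1B (0.968) and MAP1S (0.967), and SELPLG most like STX5 (0.98), C17orf59 (0.977) and ZNF16 (0.972). CCR9, with its low counts, reached at most 0.932, with C21orf67, then TMEM182 (0.911) and PINK1-AS (0.905). The points share 4 treatments and 2 libraries each.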

How the data were processed

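Strand-specific paired-end libraries of total RNA were sequenced, 2 per treatment. STAR 2.5.2a, featureCounts, DESeq2 1.12.4 and hg19 are named in the submitters' processing notes. The authors deposited whole-number counts per gene and library. Their 3 deposited tables against DMSO hold a mean signal, log2 fold changes and errors, a score (fold change over error) and raw and adjusted p-values. The sources used here give neither the annotation nor the strand setting of the counting.

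Counts were filtered with filterByExpr (min.count 10), scaled by TMM and fitted with edgeR 4.0.16 (R 4.3.3) over the 8 libraries, leaving 4 residual degrees of freedom. Quasi-likelihood F-tests were 2-sided, with Benjamini-Hochberg adjustment over 15646 genes. SD is over 2 libraries. Exon lengths came from GENCODE on GRCh38. Other settings were DESeq2 1.42.0 (its size factors, and its Wald test), no filter, a replicate block, the compared libraries alone and leaving out each library.

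The members and the lists were chosen with earlier results of these data known. List genes are named if called in a pairwise comparison (up to 4 a list, by smallest p) or among the 2 others of highest mean CPM. The genes named as like a member are the 3 of highest r. Of the genes so chosen, CCRL2, GNA13, SGPL1, SPN, KLF13, KLF12, CORO1A, GNB1, CD99 and CD47 were not called in a pairwise comparison. Some genes that these rules name are not reported here.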

Additional observations from a re-analysis of the deposited data

How the results depend on the processing

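Every called difference of a member kept its direction under the alternatives run, but several calls did not hold. The combination against DMSO had 0 members called in place of 1 when its own 4 libraries were fitted alone. The combination against dTAG-13 had 1 in place of 0 (CXCR4) with no filter, with DESeq2 or with the replicate block. The combination against GSI had 1 in place of 0 (CCR4) with no filter or with the block, and GSI against DMSO had 1 (CCR7, adjusted p = 0.0492) with the block. Leaving out 1 library changed which members were called in the combination against DMSO and in both averaged contrasts. It changed no member call in the other comparisons. Over all genes, far fewer were called without DMSO replicate 2 in the combination against DMSO, GSI against DMSO and averaged GSI. The loss of calls there was thus not particular to the members. For averaged GSI, KLF2 was called lower with no filter (adjusted p = 0.0432) and without GSI replicate 2 (0.0201). With 2 libraries a group, a library left out leaves 1, which is assumed to vary like the others.

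Replicate numbers are shared between groups in the labels, but the labels state no pairing, so the numbers were not taken to pair the libraries. Deviations of same-numbered libraries correlated at -0.108 to -0.03 between DMSO and each other group. Among dTAG-13, GSI and the combination the correlations were 0.138 to 0.214. These values do not decide whether the numbers pair the libraries. With the replicate block, CXCR4 in the combination against dTAG-13 had an adjusted p of 0.0404 and CCR4 in the combination against GSI 0.0346. The block also raised the counts over all genes, as given below.

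Signs turned in differences that were not called, and these are given as the range of the log2 fold change when 1 library is left out. For CCR9 the range was -0.0204 to 0.783 in the combination against DMSO, -0.711 to 0.0845 with dTAG-13, -0.676 to 0.120 with GSI and -0.0279 to 0.374 in averaged dTAG-13. For KLF2 in the combination against DMSO it was -0.0927 to 0.0677. With dTAG-13 it was -0.149 to 0.107 for S1PR1 and -0.0578 to 0.0633 for SELPLG, which also turned to -0.0018 with DESeq2's size factors and -4e-04 with DESeq2. The cause was not tested.

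Over all genes, counts called higher and lower were 0 and 3 with dTAG-13, 11 and 40 with no filter, 2 and 12 with DESeq2, 3 and 20 with the block and 12 and 59 in the compared libraries alone. With GSI, 137 and 135 became 303 and 357 with no filter and 264 and 295 with the block. For the combination against DMSO, 85 and 120 became 244 and 288 with no filter and 182 and 231 with the block. For the combination against dTAG-13, 100 and 89 became 264 and 299 with no filter, 241 and 235 with the block and 47 and 49 in the compared libraries alone. For the combination against GSI, 3 and 6 became 14 and 45 with no filter, 5 and 15 with DESeq2, 6 and 28 with the block and 1 and 2 in the compared libraries alone. Averaged dTAG-13 went from 12 and 66 to 41 and 124 with no filter and 28 and 107 with the block, and averaged GSI from 529 and 557 to 824 and 991 and to 858 and 964. Depth limits CCR9, with 14 to 35 reads a library, and CCR4, with 27 to 93.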
